A study of Mus musculus with 15 samples.

Results

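Prdm16 and Megf6 are neighbours on mouse chromosome 4, and they were followed here with the 3 genes beside them, Arhgef16, Tprgl and Lrrc47. These are 5 of the 23329 genes counted in 15 mouse tumors, and all 5 were among the 14880 genes that passed the low-count filter of over 1 CPM (reads per 1000000 reads of the library, scaled between libraries by the TMM method) in at least 3 tumors. With earlier results of these data known, Prdm16 and Arhgef16 were chosen for their difference between the lymphoma genotypes and Megf6 for its differences in every comparison of the study, so these values are given as descriptions with no test. For Prdm16 and Arhgef16 the same lymphoma levels also enter the comparisons between tumor types, and only their comparison within neuroblastomas was tested. Tprgl and Lrrc47 were chosen by position and were tested in all 4 comparisons.

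The tumors came from mice with 4 genotypes, with 1 library per tumor. EμMyc mice carry c-Myc under the immunoglobulin heavy chain enhancer, which is active in B cells, and Th-MYCN mice carry human MYCN under the tyrosine hydroxylase promoter, which is active in sympathetic neuroblasts. The 4 EμMyc and 3 EμMyc/Casp2-/- lymphomas were cervical lymph node tumors on a C57BL/6 background, with onset at 13 to 19 weeks and 8 to 12 weeks. The 4 Th-MYCN and 4 Th-MYCN/Casp2-/- neuroblastomas were paraspinal thoracic tumors on a mixed Sv129/C57BL6 background, chosen for low vascularization, with onset at 10 to 21 weeks and 15 to 24 weeks. Casp2-/- mice lack caspase-2, a protease of the apoptotic and stress response machinery, in every cell, so the tumor and its host share the deletion. Age at onset did not overlap between the lymphoma genotypes, so genotype cannot be told apart from age there, and strain and tumor type cannot be told apart in comparisons between tumor types. A further EμMyc/Casp2-/- tumor that the study removed is not analysed here.

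The labels were checked first. Summed B cell markers (7 genes) lay between 1917 and 4752 CPM in the lymphomas and between 8.95 and 25.1 CPM in the neuroblastomas, and summed neuroblast markers (8 genes) between 6.06 and 22.9 CPM and between 3835 and 5690 CPM. Casp2 was at 125 to 203 CPM in EμMyc and 51.9 to 76.1 CPM in EμMyc/Casp2-/- tumors, which do not overlap. In the neuroblastomas Casp2 was at 76.0 to 125 CPM in Th-MYCN and 39.6 to 80.2 CPM in Th-MYCN/Casp2-/- tumors, so reads still fall on the locus and the groups overlap. Myc was at 1238 to 1914 CPM in EμMyc and 498 to 1729 CPM in EμMyc/Casp2-/- tumors, and Mycn at 343 to 430 CPM and 230 to 421 CPM in the neuroblastoma genotypes. EuMycC2ko215 stood apart from the other lymphomas. It had the fewest reads (4940464, against 9236641 to 13093667 in the other lymphomas), 11.2% unmapped reads against 3.15% to 3.89%, the lowest Myc, Xist at 1666 CPM against 0.342 to 1.40 CPM in the others, and T cell markers at 1906 CPM against 135 to 338 CPM. Values of the 5 genes that rest on it are given with and without it. Neuroblastoma libraries held 10353787 to 17638029 reads.

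PRDM16 is a zinc finger protein with a PR domain, related to the SET domain of histone methyltransferases. It is best known as a determinant of brown fat, where it acts with co-activators and co-repressors such as PGC-1 and CtBP proteins, and it is also needed in haematopoietic and neural stem cells. Its gene is a known target of rearrangement in human leukaemia, as is that of its close relative MECOM. MEGF6 is a large secreted protein built of many EGF-like domains. ARHGEF16 is a guanine nucleotide exchange factor for small GTPases. LRRC47 is a leucine-rich repeat protein, and TPRGL (also known as mover) is a protein of presynaptic terminals.

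In GRCm38 the 5 genes lie on chromosome 4 within 625 kb. Lrrc47 is at chr4:154011731-154021513 on the plus strand and Tprgl at chr4:154157485-154160666 on the minus strand. Megf6 is at chr4:154170730-154275713 on the plus strand, Arhgef16 at chr4:154278486-154301676 on the minus strand and Prdm16 at chr4:154316125-154636873 on the minus strand. Megf6 and Prdm16 are thus transcribed toward each other, with 40.4 kb between their ends and Arhgef16 in that interval, 2.77 kb from the end of Megf6 and 14.4 kb from that of Prdm16. Tprgl lies inside Wdr8 (now Wrap73) but shares 0 exon bases with it, and the 3′ end of Lrrc47 overlaps 1190007F08Rik (now Smim1) by 1044 bases.

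The promoters of the 3 genes that differed most between tumors are shown, since the drivers of both models are Myc proteins, which bind the palindromic E-box CACGTG. They run from 250 bases before to 50 bases after the RefSeq start in GRCm38.p6, and capitals mark CACGTG. For Arhgef16 that start lies inside the span given above, which reaches 154301676, so its window is not at the outer end of that span.
Prdm16 (chr4:154636824-154637123, minus strand): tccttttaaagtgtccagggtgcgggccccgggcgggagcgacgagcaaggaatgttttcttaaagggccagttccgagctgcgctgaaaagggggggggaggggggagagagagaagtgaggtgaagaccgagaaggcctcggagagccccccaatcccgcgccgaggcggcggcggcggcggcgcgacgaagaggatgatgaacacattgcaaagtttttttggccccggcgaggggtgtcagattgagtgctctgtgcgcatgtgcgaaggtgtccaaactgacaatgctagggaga
Megf6 (chr4:154170463-154170762, plus strand): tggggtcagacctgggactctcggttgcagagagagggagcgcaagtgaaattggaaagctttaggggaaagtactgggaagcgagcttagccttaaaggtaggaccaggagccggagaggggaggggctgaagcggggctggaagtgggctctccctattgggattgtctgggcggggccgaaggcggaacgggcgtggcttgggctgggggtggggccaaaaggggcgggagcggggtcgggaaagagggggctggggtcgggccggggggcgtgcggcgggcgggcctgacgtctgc
Arhgef16 (chr4:154299846-154300145, minus strand): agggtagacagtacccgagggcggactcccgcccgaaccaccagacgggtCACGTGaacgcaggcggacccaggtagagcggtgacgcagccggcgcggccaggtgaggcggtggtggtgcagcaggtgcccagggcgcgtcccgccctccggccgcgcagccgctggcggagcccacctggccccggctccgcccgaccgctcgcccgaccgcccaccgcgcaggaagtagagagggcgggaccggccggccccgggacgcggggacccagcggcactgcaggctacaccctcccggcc
All 3 were rich in G and C, at 61% for Prdm16, 67% for Megf6 and 77% for Arhgef16 against a median of 52.7% over 32851 RefSeq promoters. They held 24, 20 and 39 CpG dinucleotides against a median of 7. CACGTG was in the window of Arhgef16 (1 match) and not in those of Prdm16, Megf6, Tprgl or Lrrc47, and 7.15% of all promoter windows held it. A match describes the letters only.

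The study used a primer pair for qPCR of Megf6, shown here because it marks which part of the transcript such an assay reads. By this qPCR in additional tumor samples, the study reported support for its Megf6 finding. That finding was a higher level in EμMyc/Casp2-/- and a lower level in Th-MYCN/Casp2-/- tumors. The qPCR values are not part of the counts used here.
Forward primer: cgtgccaatgtcctggtga
Reverse primer: gacaggcaaggctacagtcg
The forward primer matches exon 29 of 37 at chr4:154267695-154267713, and the reverse primer spans the junction of exons 30 and 31 between chr4:154268049-154268581. Both lie in the coding sequence and bound 228 bases of transcript. Among annotated transcripts 2 of Megf6 hold both sites and 0 of any other gene hold either.

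**Figure D1:**
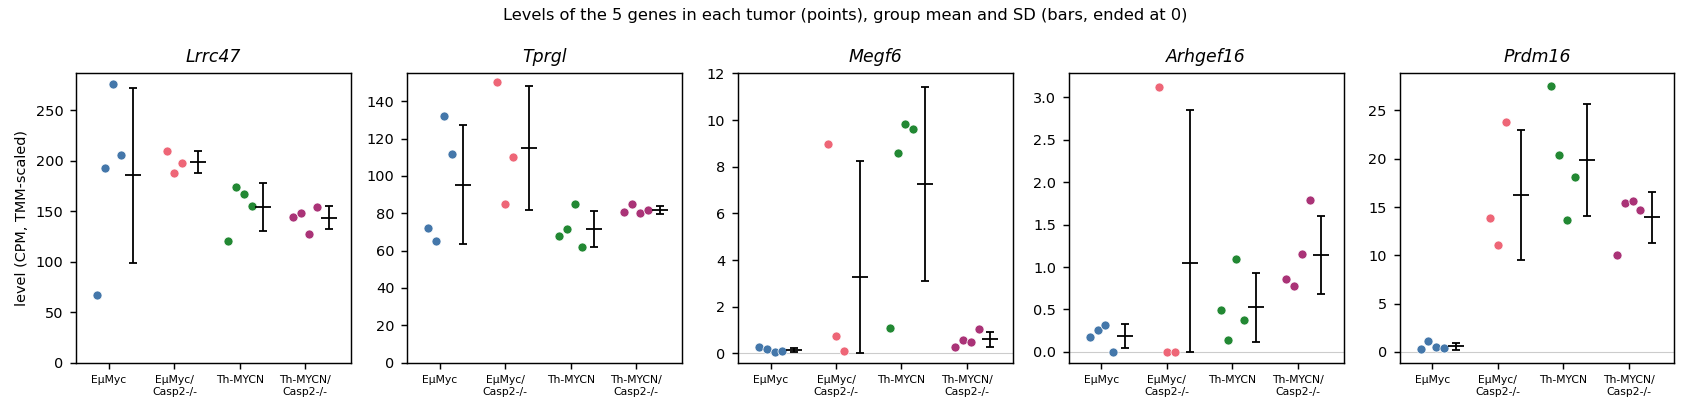
Levels of Lrrc47, Tprgl, Megf6, Arhgef16 and Prdm16 (CPM on the vertical axes, each with its own scale) in the 15 tumors, with points for tumors and black bars for the group mean and SD, ended at 0. The 4 EμMyc tumors lie at or below 1.11 CPM for Prdm16 while every other tumor is at 10.0 CPM or above, and Megf6 is high in 4 tumors only, 3 of them Th-MYCN.

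Prdm16 was close to absent from EμMyc lymphomas and present in every other tumor. In the EμMyc tumors EuMyc614, EuMyc743b, EuMyc829 and EuMyc835 it was at 0.350, 1.11, 0.472 and 0.425 CPM, from 4, 13, 6 and 4 reads. In EμMyc/Casp2-/- tumors EuMycC2ko215, EuMycC2ko239 and EuMycC2ko245 it was at 13.9, 11.0 and 23.8 CPM, from 71, 132 and 236 reads. The Casp2-/- lymphomas were all higher than the EμMyc lymphomas, with a gap from 1.11 to 11.0 CPM. Groups that do not overlap were found for 3.7% of all genes in this comparison. In Th-MYCN tumors MYCN175, MYCN235, MYCN332 and MYCN391 it was at 27.5, 20.3, 13.6 and 18.2 CPM. In Th-MYCN/Casp2-/- tumors MYCNC2ko118, MYCNC2ko144, MYCNC2ko176 and MYCNC2ko180 it was at 10.0, 15.4, 15.6 and 14.7 CPM. The neuroblastoma genotypes overlapped, although the 3 highest tumors were all Th-MYCN and the lowest was Th-MYCN/Casp2-/-.

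By group mean, Prdm16 stood at 19.9 ± 5.78 CPM in Th-MYCN (SD, n = 4), 16.2 ± 6.72 in EμMyc/Casp2-/- (n = 3), 13.9 ± 2.65 in Th-MYCN/Casp2-/- (n = 4) and 0.590 ± 0.352 in EμMyc tumors (n = 4). The first 3 groups in this order overlapped with their neighbours, and only the step down to EμMyc left a gap. The fitted log2 fold change was 4.75 (SE 0.431) in EμMyc/Casp2-/- against EμMyc tumors, which is 27.0-fold, and -5.05 (SE 0.404) in EμMyc against Th-MYCN tumors, which did not overlap, as for 59.4% of all genes. Between the Casp2-/- tumors of both types it was 0.22 (SE 0.381). These describe the values that chose the gene. The summed reads of the lymphoma groups, 439 and 27, gave a ratio of 27.2 with a 95% exact Poisson interval of 18.5 to 41.8, which covers counting error only. Without EuMycC2ko215 the ratio was 28.2 (19.0 to 43.3). The first strand column, whose reads the main counts do not use, held 61, 165 and 240 Prdm16 reads in the EμMyc/Casp2-/- tumors and 4, 9, 4 and 2 in the EμMyc tumors. Since the libraries do not mark strand (below), this column samples the same libraries and is no separate check. In bulk tumors, fewer cells with the transcript and less transcript per cell cannot be told apart.

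Loss of Casp2 was tested for Prdm16 in the neuroblastomas alone. The log2 fold change in Th-MYCN/Casp2-/- tumors relative to Th-MYCN was -0.51 (SE 0.351, 95% interval -1.26 to 0.23), and edgeR's quasi-likelihood test with Benjamini-Hochberg adjustment over all genes gave an FDR of 0.928. A fall of over 2-fold thus lies within the interval. That the lymphomas rose while the neuroblastomas did not was not tested as an interaction, since the lymphoma values chose the gene.

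Megf6 was high in 4 tumors of 15. In Th-MYCN tumors MYCN175, MYCN235, MYCN332 and MYCN391 it was at 1.10, 8.57, 9.81 and 9.63 CPM, from 18, 118, 170 and 156 reads. In Th-MYCN/Casp2-/- tumors, in the order above, it was at 0.288, 0.578, 0.482 and 1.06 CPM, from 4, 9, 5 and 13 reads. The groups did not overlap, as for 6.62% of all genes. MYCN175, however, lay just above the highest Casp2-/- tumor and far below the other Th-MYCN tumors. It also had the latest onset of its group, 21 weeks against 13, 10 and 15 weeks. The Casp2-/- tumors had onset at 15 to 24 weeks. Of the tumors with onset at 15 weeks, MYCN391 was at 9.63 CPM and MYCNC2ko118 and MYCNC2ko180 at 0.288 and 1.06 CPM. The part of age in the Megf6 difference was not tested. In the lymphomas the 4 EμMyc tumors were at 0.262, 0.171, 0.0787 and 0.106 CPM, from 3, 2, 1 and 1 reads, at or below the 3 reads taken as the floor of detection. The EμMyc/Casp2-/- tumors EuMycC2ko215, EuMycC2ko239 and EuMycC2ko245 were at 8.99, 0.751 and 0.101 CPM, from 46, 9 and 1 reads. A single tumor of the group was therefore at the level of the high neuroblastomas, another was above the EμMyc tumors, and the third was among them.

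The group means of Megf6 were 7.28 ± 4.16 CPM in Th-MYCN (SD, n = 4), 3.28 ± 4.95 in EμMyc/Casp2-/- (n = 3), 0.601 ± 0.326 in Th-MYCN/Casp2-/- (n = 4) and 0.155 ± 0.0816 in EμMyc tumors (n = 4). In this order only Th-MYCN/Casp2-/- and EμMyc did not overlap with each other among neighbouring groups. The fitted log2 fold change was -3.58 (SE 0.923) in Th-MYCN/Casp2-/- tumors relative to Th-MYCN, and the summed reads of 31 and 462 gave a 12.2-fold lower level (95% exact Poisson interval 8.48 to 18.2). Without MYCN175 it was 15.8-fold lower (11.0 to 23.5). In EμMyc/Casp2-/- against EμMyc tumors the log2 fold change was 4.26 (SE 1.19) and the read ratio, from 56 and 7 reads, 13.4 (6.09 to 34.9). Without EuMycC2ko215 the ratio was 2.95 (1.01 to 9.14), from 10 and 7 reads, and the fitted log2 fold change 1.45. Between tumor types the log2 fold change was -5.47 (SE 1.12) for EμMyc against Th-MYCN, and 2.37 (SE 1.01) for EμMyc/Casp2-/- against Th-MYCN/Casp2-/- tumors. Leaving out EuMycC2ko215 turned the last value to -0.38. The first strand column held 17, 126, 157 and 156 Megf6 reads in Th-MYCN and 53, 7 and 3 in EμMyc/Casp2-/- tumors. As for Prdm16, this column is no separate check.

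Prdm16 and Megf6 were not highest in the same tumors. EuMycC2ko245 had the highest Prdm16 of the lymphomas, 23.8 CPM, with Megf6 at 0.101 CPM. MYCN175 had the highest Prdm16 of all tumors, 27.5 CPM, with the lowest Megf6 of its group. Over the log2 levels Pearson's r between them was 0.52 across the 7 lymphomas and 0.31 across the 8 neuroblastomas, as descriptions of points that share groups and libraries.

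Arhgef16, which lies between them, was near the limit of detection throughout. It passed the filter with over 1 CPM in 4 tumors. In EμMyc tumors it was at 0.175, 0.257, 0.315 and 0 CPM, and in EμMyc/Casp2-/- tumors at 3.13 CPM in EuMycC2ko215 (16 reads) and at 0 in the others, where 0 reads allow up to 0.250 and 0.303 CPM. The lymphoma that had high Megf6 was thus also the sole lymphoma over 1 CPM of Arhgef16. The fitted log2 fold change between the lymphoma genotypes, 2.19 (SE 1.32), rests on that tumor. Without it the fitted value was -4.43, which depends on the prior count and is no bound, since the other Casp2-/- lymphomas had 0 reads and the EμMyc lymphomas 0 to 4 reads. In Th-MYCN tumors Arhgef16 was at 0.489, 0.145, 1.10 and 0.371 CPM and in Th-MYCN/Casp2-/- tumors at 0.864, 0.771, 1.16 and 1.79 CPM. The Casp2-/- neuroblastomas tended to the upper part of the range but overlapped with the controls, with a log2 fold change of 1.09 (SE 1.06, 95% interval -1.17 to 3.35, edgeR quasi-likelihood FDR 0.981), the opposite sign to that of Megf6. Between tumor types the log2 fold changes were -1.41 (SE 1.24) in the Casp2 wild type and -0.31 (SE 1.16) in the Casp2-/- tumors, given as descriptions. The latter rested on EuMycC2ko215, since the other EμMyc/Casp2-/- tumors were at 0 reads.

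Tprgl and Lrrc47 were well expressed in every tumor. Tprgl was at 72.2, 65.4, 132 and 112 CPM in EμMyc, 151, 84.7 and 110 CPM in EμMyc/Casp2-/-, 68.0, 71.8, 84.7 and 61.8 CPM in Th-MYCN and 80.7, 85.1, 80.0 and 81.6 CPM in Th-MYCN/Casp2-/- tumors. The groups overlapped in all 4 comparisons. The log2 fold change of Tprgl was 0.19 (SE 0.224, 95% interval -0.28 to 0.67, FDR 0.994) for Casp2 loss in neuroblastomas and 0.27 (SE 0.242, -0.24 to 0.78, FDR 0.804) in lymphomas, in the same quasi-likelihood test. Between tumor types it was 0.41 (SE 0.224, 95% interval -0.06 to 0.89, FDR 0.123) and, in the Casp2-/- tumors, 0.49 (SE 0.242, -0.02 to 1.00, FDR 0.0924).

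Lrrc47 was at 67.4, 193, 276 and 206 CPM in EμMyc, 210, 188 and 198 CPM in EμMyc/Casp2-/-, 121, 174, 168 and 155 CPM in Th-MYCN and 145, 148, 128 and 154 CPM in Th-MYCN/Casp2-/- tumors. EuMyc614 was the lowest of all tumors. The log2 fold change was -0.10 (SE 0.286, 95% interval -0.71 to 0.51, FDR 1) for Casp2 loss in neuroblastomas and 0.10 (SE 0.309, -0.56 to 0.76, FDR 0.956) in lymphomas. Leaving out EuMyc614 turned the lymphoma value to -0.15. Between tumor types it was 0.27 (SE 0.286, 95% interval -0.34 to 0.88, FDR 0.440), and in the Casp2-/- tumors 0.47 (SE 0.309, -0.19 to 1.13, FDR 0.207), where every lymphoma lay above every neuroblastoma, as for 54.8% of all genes in either direction.

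No gene with a test was called in any comparison, a call being an FDR under 0.05 with a change of over 2-fold in edgeR's quasi-likelihood test. The counts were 0 of 4 genes for Casp2 loss in neuroblastomas and 0 of 2 in lymphomas, where 0.0336% and 0.141% of all genes were called. Between tumor types they were 0 of 2 in the wild type and 0 of 2 in the Casp2-/- tumors, where 46.1% and 46.4% of all genes were called. The likelihood ratio test of edgeR and DESeq2 also called 0 in each comparison, where the likelihood ratio test called 0.813%, 1.44%, 47.5% and 48% of all genes in the same order. In addition, 0 of these values had an unadjusted p under 0.05, as did 6.77%, 8.53%, 64.3% and 62.5% of all genes. These counts rest on few genes, and the intervals above include changes of over 2-fold for Prdm16 and Arhgef16 in the neuroblastomas and reach or pass 2-fold for Tprgl and Lrrc47 between the Casp2-/- tumor types.

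Levels of the 5 genes were compared per kb of exon. Group means lay between 40.9 and 56.6 CPM per kb for Lrrc47, between 31.9 and 51.4 for Tprgl, between 0.0633 and 2.13 for Prdm16, between 0.0196 and 0.924 for Megf6 and between 0.0341 and 0.209 for Arhgef16. Per length, every group mean of Prdm16, Megf6 and Arhgef16 was thus below those of Tprgl and Lrrc47.

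The 3 deposited count columns allowed a check of strand. The second strand column held 48.8% to 49.3% of strand-assigned reads in every library, so the libraries do not mark strand, and sense and antisense reads cannot be told apart. Of all reads on each gene over both columns, the second strand column held 49.9% for Prdm16 (95% exact binomial interval 48.5 to 51.3), 49.7% for Megf6 (46.8 to 52.7) and 60.5% for Arhgef16 (53.3 to 67.4, from 195 reads). For Tprgl the share was 50.45 ± 2.23% in the lymphomas (SD, n = 7) and 50.1 ± 0.788% in the neuroblastomas (n = 8), and for Lrrc47 it was higher by 0.724 percentage points in the lymphomas. Neither differed beyond the spread between tumors in a 2-sided exact permutation test over 6435 splits (p = 0.778 and 0.206, adjusted over the pair 0.778 and 0.412). Counting either strand together kept 100% of the reads of Megf6, Arhgef16 and Tprgl but 66.7% of those of Lrrc47 and 2.05% of those of its overlapping neighbour 1190007F08Rik. In the second strand column the levels of these overlapping genes are therefore partly shared.

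A noncoding RNA, 5930403L14Rik, is annotated at chr4:154630691-154636367 inside the span of Prdm16, next to its start. It was at 0 reads in all 3 EμMyc/Casp2-/- tumors, although Prdm16 itself was at 11.0 to 23.8 CPM there, and at 0 to 0.875 CPM in EμMyc tumors. In neuroblastomas it was at 0.916 to 2.47 CPM in Th-MYCN and 2.74 to 4.24 CPM in Th-MYCN/Casp2-/- tumors. The neuroblastoma genotypes did not overlap, as for 6.62% of all genes, and the quasi-likelihood FDR was 0.921.

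The genes around the stretch were measured to see whether Prdm16 and Megf6 moved with their surroundings. Of 29 other genes within 1 Mb of either end, 23 passed the filter, and none was called between genotypes by the quasi-likelihood test, in the neuroblastomas (0.0336% of all genes called) or in the lymphomas (0.141%). The likelihood ratio test likewise called none in the neuroblastomas (0.813% of all genes) or in the lymphomas (1.44%). The neuroblastoma counts leave out Ccdc27, which passed the filter through Th-MYCN tumors alone and is described below without a test. Counts of 0 among so few genes are near these shares. The median log2 fold change was -0.09 in the neuroblastomas and -0.01 in the lymphomas, against -0.002 and -0.03 over all genes. In single tumors the median deviation of these 23 genes from the control mean ran from -0.30 to 0.16 on the log2 scale in neuroblastomas and from -0.13 to 0.32 in lymphomas. EuMycC2ko215 was at 0.26, EuMycC2ko239 at -0.13 and EuMycC2ko245 at 0.004, all within the range of the EμMyc tumors.

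**Figure D2:**
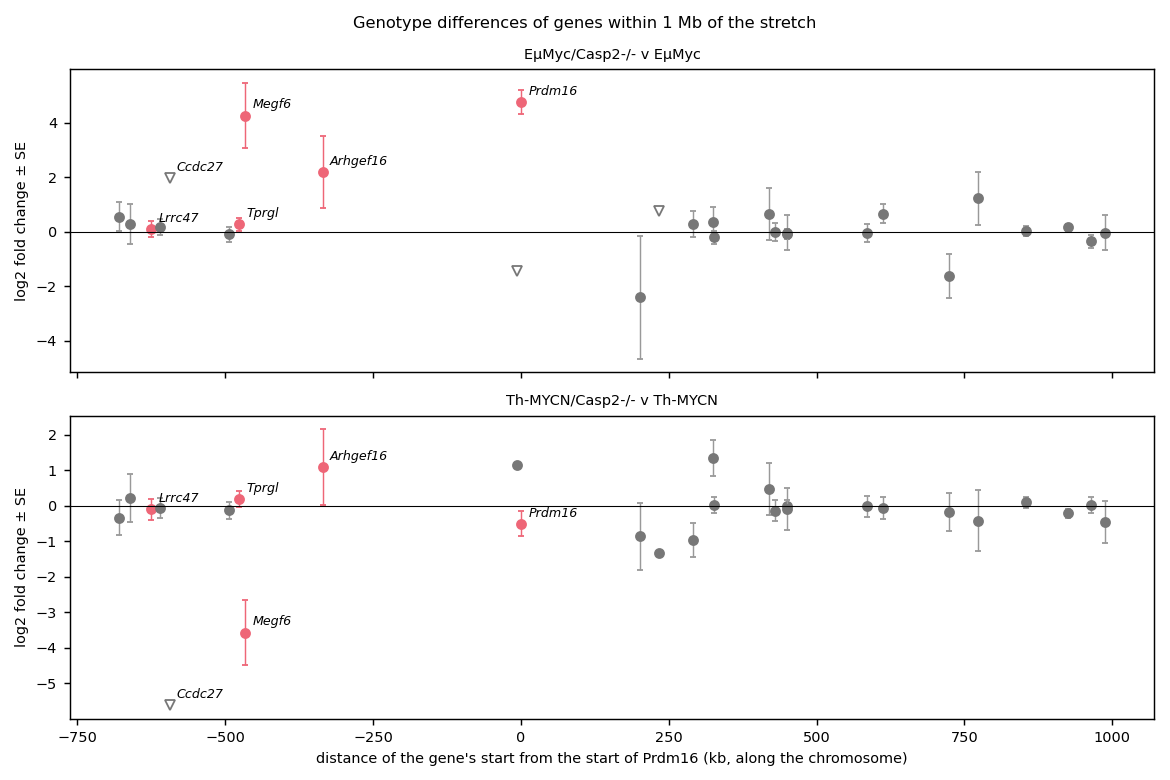
Log2 fold change between Casp2 genotypes in lymphomas (top) and neuroblastomas (bottom) for each gene within 1 Mb that passed the filter, by distance of its start from that of Prdm16 in kb. Red points are the 5 genes, grey points the others, bars the SE where it could be estimated, and open triangles genes with 0 reads in a group, drawn at their limit. Prdm16 and Megf6 in the lymphomas, and Megf6 and Ccdc27 in the neuroblastomas, lie away from the other genes.

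Ccdc27, which lies between Lrrc47 and Tprgl on the minus strand, had the pattern most like that of Megf6 of all 14879 genes compared (Pearson's r of log2 CPM 0.89 over 15 tumors, 0.94 within the 7 lymphomas and 0.93 within the 8 neuroblastomas). It was at 0.183, 4.72, 1.04 and 5.31 CPM in MYCN175, MYCN235, MYCN332 and MYCN391 and had 0 reads in all 4 Th-MYCN/Casp2-/- tumors. The CPM values did not overlap, as for 6.62% of all genes, but MYCN175 had 3 reads, the floor of detection. In single Casp2-/- tumors 0 reads allow up to 0.193 to 0.289 CPM, above the value of MYCN175, so no gap is shown there. With 3 reads over the group as the floor, the group mean was at least 48.9-fold lower in the Casp2-/- tumors. The Th-MYCN mean came mostly from MYCN235 and MYCN391. This is a description with no test, since the gene was picked for its likeness to Megf6 and passed the filter through 3 Th-MYCN tumors alone. In lymphomas it was at 0.781 CPM in EuMycC2ko215 and at 0 in the other 6, so r within the lymphomas rests on that tumor. Wdr8, which lies between Ccdc27 and Megf6, was at 15.1 to 20.9 CPM in Th-MYCN and 10.2 to 21.1 CPM in Th-MYCN/Casp2-/- tumors, which overlap. Trp73 (p73, a relative of p53), also between them, was at or below 0.193 CPM in every tumor. It did not pass the filter, so its pattern cannot be read.

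The other 4 genes most like Megf6 were Gm14207 (r 0.89), Ccdc164 (0.88), Baiap3 (0.88), which acts in dense-core vesicle traffic, and Rgs3 (0.87), a regulator of G protein signaling. They were picked for their likeness to Megf6 over these tumors, so the high and low tumors they share with it are part of the choice. All 4 were lowest among Th-MYCN tumors in MYCN175, as Megf6 was. Baiap3 was at 7.27, 73.4, 16.0 and 74.2 CPM and Rgs3 at 9.53, 58.8, 41.3 and 34.2 CPM in the Th-MYCN tumors. In Th-MYCN/Casp2-/- tumors Baiap3 was at 5.11 to 12.6 CPM and Rgs3 at 5.30 to 7.80 CPM. EuMycC2ko215 was the highest lymphoma for each of the 5 genes, with Baiap3 at 19.3 CPM against 1.57 to 2.82 CPM in the other lymphomas.

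The genes most like Prdm16 were Ccdc30 (r 0.91), 1110032F04Rik (0.89), Pik3cb (0.87), which encodes a catalytic subunit of PI3-kinase, Arl2bp (0.87) and Sirt5 (0.87), a mitochondrial deacylase. Within the 7 lymphomas r lay between 0.76 and 0.95, while within the 8 neuroblastomas it was -0.73 for Ccdc30, -0.69 for Arl2bp, -0.48 for 1110032F04Rik, 0.02 for Pik3cb and 0.73 for Sirt5. These genes too were picked over the same tumors, so their likeness to Prdm16 is part of the choice. Ccdc30 was at 0 to 0.171 CPM in EμMyc, 1.51 to 3.91 CPM in EμMyc/Casp2-/- and 13.7 to 17.9 CPM in neuroblastomas.

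**Figure D3:**
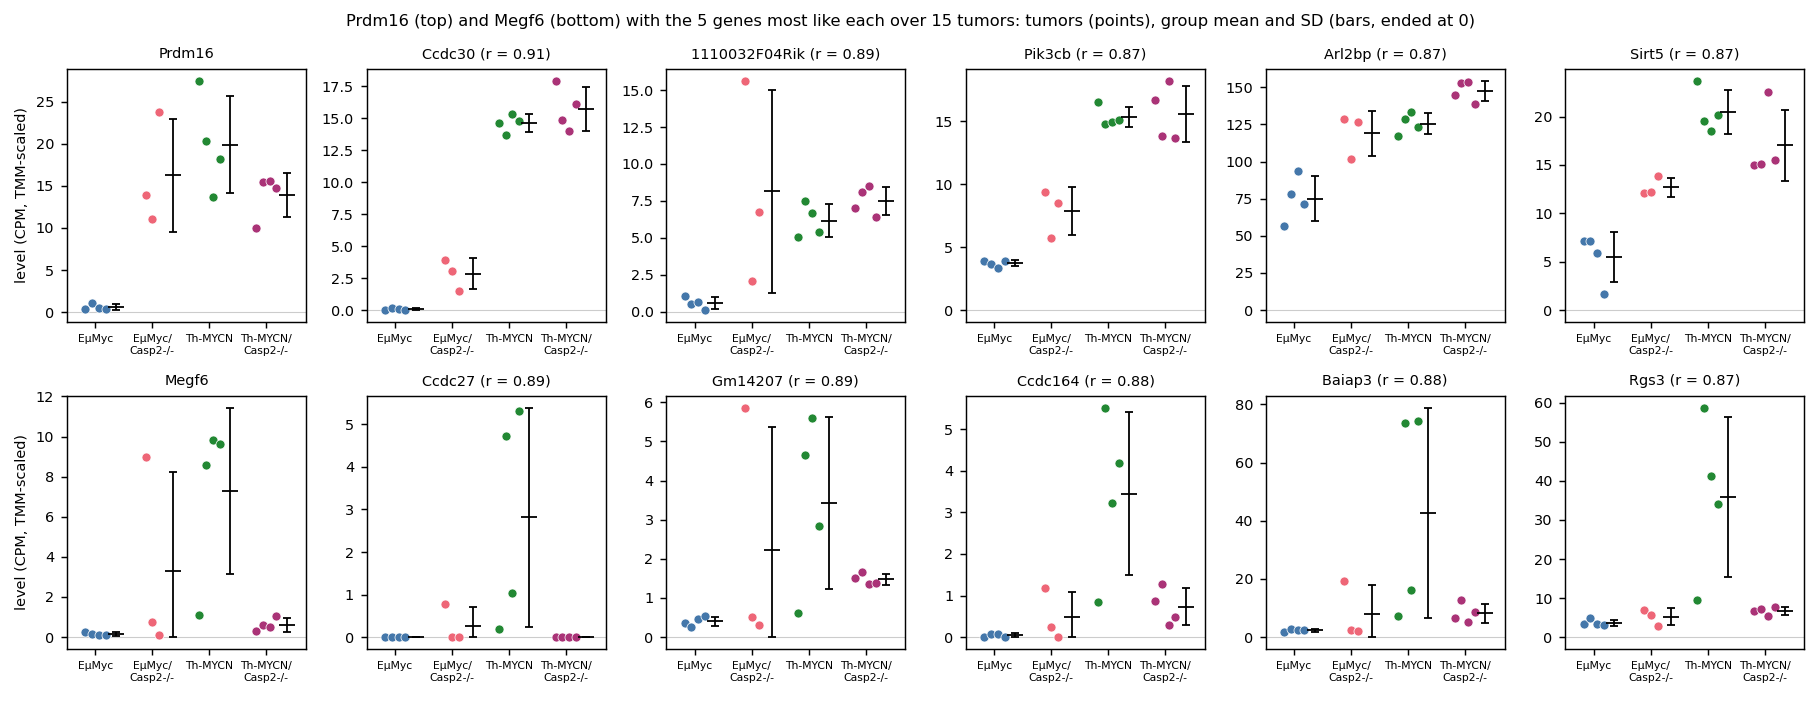
Levels (CPM) in the 15 tumors of Prdm16 (top row) and Megf6 (bottom row), each followed by the 5 genes with the highest Pearson's r of log2 CPM, with points for tumors and bars for the group mean and SD, ended at 0. In the bottom row MYCN175, the first Th-MYCN point, is low in every panel and EuMycC2ko215 is the highest lymphoma. The genes were picked for likeness over these tumors, so these shared positions are part of the choice.

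The other genes of the PRDM family were set beside Prdm16. Of 15 listed members 10 passed the filter, and of the 9 other than Prdm16, whose lymphoma values chose it, none was called for Casp2 loss in either tumor type by the quasi-likelihood or the likelihood ratio test. The first called 0.0336% of all genes in neuroblastomas and 0.141% in lymphomas, and the second 0.813% and 1.44%, so 0 of 9 is near these shares. The median log2 fold change of the list, Prdm16 included, was -0.20 in lymphomas and -0.09 in neuroblastomas, against -0.03 and -0.002 over all genes. Prdm2, a tumor suppressor also known as RIZ, was the most abundant member at 64.7 to 152 CPM. Mecom, the nearest relative of Prdm16, was at 1.05 to 4.45 CPM in EμMyc and 0.781 to 2.42 CPM in EμMyc/Casp2-/- tumors, so it did not follow Prdm16 in the lymphomas. In neuroblastomas Mecom was at 9.20 to 48.0 CPM in Th-MYCN and 6.34 to 16.2 CPM in Th-MYCN/Casp2-/- tumors (log2 fold change -1.33, SE 0.539, FDR 0.639). Prdm1, which drives plasma cell differentiation, had a log2 fold change of 0.76 (SE 0.597, FDR 0.775) in lymphomas.

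**Figure D4:**
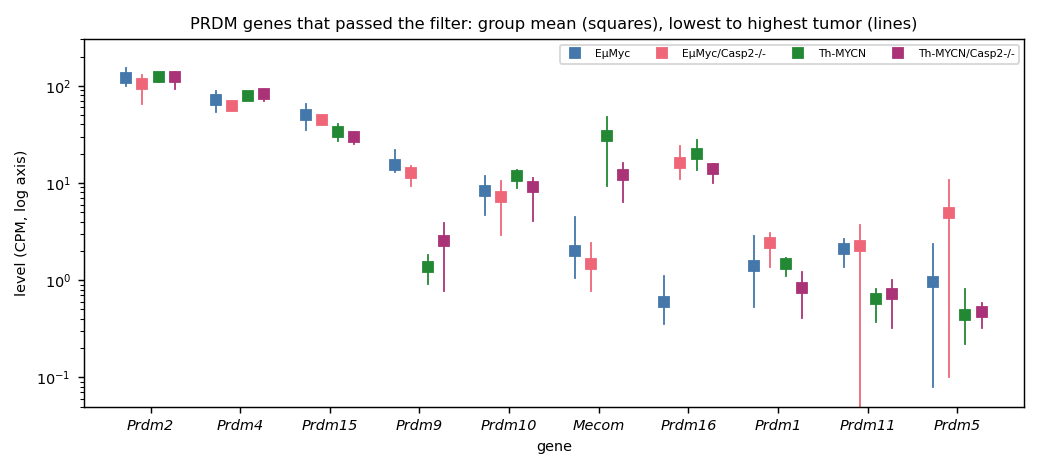
Levels of the 10 PRDM genes that passed the filter by group (CPM, log axis), with squares for the group mean and lines from the lowest to the highest tumor, ended at the lower edge of the plot where a tumor had 0 reads. Prdm16 is at 0.590 CPM in EμMyc and between 13.9 and 19.9 CPM in the other groups, while Mecom is low in both lymphoma groups.

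The protein partners of PRDM16 were measured beside it. All 10 partners listed passed the filter and none was called for Casp2 loss by the quasi-likelihood test, which called 0.0336% of all genes in neuroblastomas and 0.141% in lymphomas, with medians of -0.19 in lymphomas and -0.005 in neuroblastomas. Ctbp1, a co-repressor, was at 384 to 552 CPM over the lymphomas and Med1, a Mediator subunit, at 100 to 198 CPM. Ehmt1, a histone methyltransferase that binds PRDM16, was at 92.4 to 134 CPM in EμMyc and 72.1 to 135 CPM in EμMyc/Casp2-/- tumors. Ppargc1a, which encodes PGC-1α, was at or below 0.599 CPM in every lymphoma.

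Brown and white fat markers are given because Prdm16 is known from brown fat. Of 12 markers 9 passed the filter, and the quasi-likelihood test called none in neuroblastomas (0.0336% of all genes) or lymphomas (0.141%). Their summed level was 42.0 to 274 CPM in EμMyc and 53.7 to 154 CPM in EμMyc/Casp2-/- tumors, mostly from Fabp4, and Ucp1, the defining gene of brown fat, had 0 reads in all 3 EμMyc/Casp2-/- tumors. In neuroblastomas the sum was 97.5 to 249 CPM in Th-MYCN and 25.2 to 87.9 CPM in Th-MYCN/Casp2-/- tumors, which do not overlap. Taken singly, 1 of the 9 markers (Pparg) did not overlap there, as for 6.62% of all genes, and Fabp4 and Cidea did overlap. The median log2 fold change of the markers was -1.61 there. Cidea was at 11.9 to 88.7 CPM in Th-MYCN and 4.63 to 16.2 CPM in Th-MYCN/Casp2-/- tumors (FDR 0.585). MYCN175, with a sum of 162 CPM, had Megf6 at 1.10 CPM and Prdm16 at 27.5 CPM. The part of these cells in the Prdm16 and Megf6 values of the neuroblastomas was not tested.

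Markers of other cells moved with some of these tumors. The 10 T cell markers were all higher in EμMyc/Casp2-/- than in EμMyc tumors by fitted fold change, with a median log2 of 3.24. Of the 10, 0 were called by the quasi-likelihood and 5 by the likelihood ratio test, which called 0.141% and 1.44% of all genes. Summed, they were at 176, 145, 135 and 225 CPM in EμMyc against 1906, 338 and 218 CPM in EuMycC2ko215, EuMycC2ko239 and EuMycC2ko245. Lck was the most abundant in EuMycC2ko215, at 412 CPM, and 0 of the 10 were at 0 reads in the EμMyc/Casp2-/- tumors. Megf6 followed the order of these sums in the 3 Casp2-/- tumors, and the part of T cells in its level was not tested. Prdm16 did not follow it, being highest in EuMycC2ko245, whose sum lay within the EμMyc range. The 5 endothelial markers were lower in Th-MYCN/Casp2-/- tumors, at 18.8 to 30.9 CPM summed against 46.3 to 72.3 CPM in Th-MYCN tumors, with a median log2 fold change of -1.20, 0 called by the quasi-likelihood and 2 by the likelihood ratio test (0.0336% and 0.813% of all genes). Among the neuroblastomas MYCN175 had the highest endothelial sum, with Megf6 at 1.10 CPM. The part of vessels in the Megf6 difference was not tested. Myeloid, fibroblast and Schwann cell markers had 0 calls in both genotype comparisons by either test, with medians of -0.24, 0.01 and 0.64 in neuroblastomas and 0.01, -0.54 and -0.83 in lymphomas.

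Genes related to the other members gave no calls by the quasi-likelihood test for Casp2 loss. That test called 0.0336% of all genes in neuroblastomas and 0.141% in lymphomas, so the absence of calls among so few genes is near these shares. Of 11 genes formerly named as multiple EGF-like domain genes 10 passed the filter, with medians, Megf6 included, of -0.03 in neuroblastomas and 0.44 in lymphomas. Celsr3, a seven-pass cadherin, was the most abundant in neuroblastomas at 361 to 471 CPM. Megf10, an engulfment receptor, was at 3.13 and 3.17 CPM in EuMycC2ko215 and EuMycC2ko239 and at 0 in EuMycC2ko245, against 0 to 0.0855 CPM in EμMyc tumors (quasi-likelihood FDR 0.0688, likelihood ratio FDR 5.1e-05). The likelihood ratio test called Megf10 in lymphomas, where it called 1.44% of all genes. The 10 listed exchange factors and partner genes that go with Arhgef16 all passed the filter, and the medians, Arhgef16 included, were 0.08 and 0.17. Arhgef15, which is known from endothelium and neurons, was at 62.0 to 108 CPM in Th-MYCN and 71.8 to 155 CPM in Th-MYCN/Casp2-/- tumors.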

How the data were processed

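RNA-seq was done on 15 mouse tumors in 4 groups. Per the study's methods the authors made poly(A) libraries, sequenced them single-end, checked reads with FastQC, aligned them to mm10 with STAR and tested with edgeR. The deposited counts are whole reads per gene for either strand, the first strand and the second strand, and the second strand was used. The second strand held 4940464 to 17638029 reads per tumor (median 12797572), which limits genes of a few reads, and intervals cover counting error only. Labels do not say that replicates of a group share a litter or day.

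Genes that exceeded 1 CPM in no fewer than 3 tumors were scaled by TMM and fitted in 1 model of 4 groups (edgeR 4.0.16 in R 4.3.3, quasi-likelihood test, FDR under 0.05 and over 2-fold). Likelihood ratio tests, DESeq2 1.42.0, other filters, each tumor left out and summed strands were alternatives. Log2 CPM used a prior count of 2. Tests were tried on simulated data. Of 23329 symbols 23053 (98.8%) were placed on GRCm38.

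Members and gene lists were chosen with earlier results of these data known. Arhgef16 was also planned to be tested between tumor types, but the lymphoma values that chose it enter those comparisons, so they are given with no test. Genes named were the 5 members, the 5 genes with the highest Pearson's r to Prdm16 and to Megf6, neighbours within 1 Mb, label checks, and from each list up to 4 with the highest mean CPM and those called between genotypes. Mecom, Prdm1, Ppargc1a, Ucp1 and Trp73 were named after their values were seen. The values of 1 list member are not reported here.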

Additional observations from a re-analysis of the deposited data

Results flagged for a closer look

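The 5 genes in the 3 groups of 4 tumors gave 15 sets of values, and 3 held a tumor far from the others. The rule nominally flags about 5% of sets by chance, but the share flagged over all genes was not measured. Prdm16 in EμMyc and Megf6 in Th-MYCN are also among the values that chose these genes. No excess over chance can thus be read from this count. Prdm16 in EuMyc743b was at 1.11 CPM against 0.350 to 0.472 CPM in the other EμMyc tumors. Prdm16 in MYCNC2ko118 was at 10.0 CPM against 14.7 to 15.6 CPM in the other Th-MYCN/Casp2-/- tumors. Megf6 in MYCN175 was at 1.10 CPM against 8.57 to 9.81 CPM in the other Th-MYCN tumors.

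For Prdm16 and Lrrc47 every Casp2-/- lymphoma lay above the mean of its controls and every Casp2-/- neuroblastoma below. For Prdm16 the log2 fold change was higher in lymphomas than in neuroblastomas by 5.27, and for Lrrc47 by 0.20. The Lrrc47 value rests on EuMyc614, at 67.4 CPM, without which its lymphoma log2 fold change was -0.15. Neither difference was tested. The fitted log2 fold change of Megf6 also had opposite signs, 4.26 in lymphomas and -3.58 in neuroblastomas, but EuMycC2ko245 lay below the mean of its controls, and this difference was not tested either.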

How the results depend on the processing

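Of 302 values of the 5 genes under other settings, 297 kept their direction and side of the threshold or moved by less than the spread between tumors. Prdm16 stayed between 4.36 and 5.29 (log2 fold change) between lymphoma genotypes and between -0.66 and -0.31 between neuroblastoma genotypes. Between Casp2-/- tumor types Prdm16 ran from -0.18 to 0.50. Megf6 stayed between -3.97 and -3.33 between neuroblastoma genotypes.

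Without EuMycC2ko215, Megf6 was at 1.45 between lymphoma genotypes and at -0.38 between Casp2-/- tumor types. Arhgef16 between lymphoma genotypes was at -4.43 without that tumor, against 2.19 with it, and with the remaining Casp2-/- lymphomas at 0 reads the value is no bound. With each tumor left out in turn, Arhgef16 between Casp2-/- tumor types ran from -6.89 to 0.43, the lowest without EuMycC2ko215, which again depends on the prior count. Lrrc47 between lymphoma genotypes ran from -0.15 to 0.35, the lowest without EuMyc614, and the strand share difference of Tprgl from -0.42 to 0.67 percentage points, the lowest without EuMycC2ko245.

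Over all genes, 21 were called between lymphoma genotypes, against 215 with the likelihood ratio test, 203 with DESeq2 and 1 with those groups alone. Leaving out a tumor gave 10 to 163 calls, with 10 without EuMyc829 or EuMycC2ko215 and 163 without EuMycC2ko245. Between neuroblastoma genotypes 5 were called, against 121 with the likelihood ratio test and 116 with DESeq2, and 2 to 25 with a tumor left out, 25 without MYCN175 and 2 or 3 without any other tumor except MYCN332. The cause was not tested. Between tumor types the lowest FDR over all settings was 0.0206 for Tprgl and 0.00650 for Lrrc47, with changes under 2-fold in every setting. Summing both strands was chosen after seeing the data. No paired analysis was possible because the labels name tumors by identifiers that no groups share, and the replicate numbers used here only follow their order.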
